A study of Homo sapiens with 6 samples.

Results

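The Kruppel-like factors (KLFs) described here are 10 genes, KLF2, KLF3, KLF4, KLF6, KLF9, KLF10, KLF11, KLF12, KLF13 and KLF16, of the 17579 genes in the expression table. They were picked by gene symbol, with the difference between the AURKA-guide and control libraries already known. Their differences between those groups are therefore given below as a description, with no p-value. The authors' own q-values are quoted, and nothing is read from them. Calls of the fit across all features are only counted, beside the share of all features called. The RNA came from LP-1, an established line of human multiple myeloma cells that the labels give as B lymphoblast. Cells of both groups were infected with a guide-RNA virus and cultured with FBS: 3 libraries came from cells given a guide against AURKA, which encodes Aurora A, a kinase of mitosis, and 3 from cells given a non-targeting guide (control). The study's title concerns Aurora A acting on the histone methyltransferase NSD2 in drug-resistant myeloma, and the comparison asks which transcripts differ when AURKA is targeted. The labels do not say whether the AURKA-guide cells were 1 clone or a pool, nor whether replicates were separate cultures, so each p-value reflects the spread among these libraries alone, part or all of which could be technical.

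KLFs are transcription factors with a conserved carboxy-terminal set of zinc fingers that bind GC-rich boxes and CACCC elements, the same kind of DNA that the related SP factors bind. Their amino-terminal parts differ and set their partners: KLF2, KLF4 and KLF6 mostly act through acetyltransferases as activators, KLF3 and KLF12 recruit the CtBP corepressors, and KLF9, KLF10, KLF11, KLF13 and KLF16 recruit SIN3 with histone deacetylases. In lymphocytes, KLFs are best known for quiescence, homing and differentiation, and in myeloma cells KLF2 has been placed upstream of IRF4, the transcription factor that plasma cells depend on.

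Promoter sequence is shown for 3 KLFs on which the results turn: KLF2, lower in the AURKA-guide libraries; KLF6, higher in them; and KLF13, the KLF with the highest level. Each line is the 250 bases before the annotated start, 5′ to 3′ on the gene's own strand, from RefSeq promoters on GRCh38.p14, where KLF2 lies at chr19:16324576-16324825 (plus strand), KLF6 at chr10:3785210-3785459 (minus strand) and KLF13 at chr15:31326585-31326834 (plus strand). Capitals mark matches, on either strand, to the CACCC box, to the GC box GGGCGG, and to CTANNNNTAG. MEF2 factors bind the form of that last pattern whose middle bases are all A or T.
KLF2: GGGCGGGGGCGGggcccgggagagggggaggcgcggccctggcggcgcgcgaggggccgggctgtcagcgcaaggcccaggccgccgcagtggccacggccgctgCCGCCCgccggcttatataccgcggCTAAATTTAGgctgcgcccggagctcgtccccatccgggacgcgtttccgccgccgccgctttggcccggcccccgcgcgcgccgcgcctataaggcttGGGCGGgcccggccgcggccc
KLF6: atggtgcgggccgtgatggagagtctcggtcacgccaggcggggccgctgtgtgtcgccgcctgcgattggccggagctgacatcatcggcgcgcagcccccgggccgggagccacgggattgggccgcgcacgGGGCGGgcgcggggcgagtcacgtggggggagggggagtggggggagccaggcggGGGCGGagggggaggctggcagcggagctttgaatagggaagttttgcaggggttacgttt
KLF13: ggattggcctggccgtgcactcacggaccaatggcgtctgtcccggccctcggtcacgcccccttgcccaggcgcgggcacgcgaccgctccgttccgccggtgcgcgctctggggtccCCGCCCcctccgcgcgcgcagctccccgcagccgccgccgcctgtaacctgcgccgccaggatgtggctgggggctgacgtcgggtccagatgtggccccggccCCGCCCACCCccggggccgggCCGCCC
The KLF2 window held 4 GC boxes and 1 MEF2-type element, CTAAATTTAG, which starts 120 bases before the start. The KLF6 window held 2 GC boxes, and the KLF13 window held 3, 1 of which overlaps its single CACCC box. RefSeq entries were found for 8 of the 10 KLFs, 12 entries in all because KLF11 and KLF12 have several starts. A GC box was in 8 of the 12 entries, against 42.6% of all 35116 promoters of the same length. A CACCC box was in 4 of the 12, against 54.7% of all promoters. The looser pattern CTANNNNTAG was in 3 of the 12 (1 each of KLF2, KLF11 and KLF12), against 2.36%. Only the KLF2 match has all A or T in the middle, since KLF11 has CTAGCGGTAG and KLF12 has CTACATTTAG. A match is a description of letters in this window and not a bound site.

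AURKA was measured first, as the check of the labels. Its normalised count, in CPM, which scales counts to library size, was 189, 192 and 195 in control replicates 1 to 3 and 113, 119 and 113 in AURKA-guide replicates 1 to 3. It fell by 0.74 (SE 0.05) on the log2 scale and passed edgeR's quasi-likelihood test with Benjamini-Hochberg adjustment at 0.05. A guide changes DNA and need not remove the transcript, so the remaining RNA does not measure Aurora A protein. Total expected counts lay between 17724174 and 18523594 per library, so that 1 CPM stands for about 18.3 reads. Plasma cell genes were abundant (XBP1 at 1482 and IRF4 at 840 CPM in controls), except SLAMF7 at 0.78 CPM. CD38 was the 1 gene of the 9 plasma cell markers to pass edgeR's test, higher, from 210.3 ± 6.004 to 274 ± 1.14 CPM (SD, n = 3). The log2 difference was above 0 for 2 of the 9, with a median of -0.10. The groups did not overlap for 1 higher and 3 lower (TNFRSF17, IRF4 and PRDM1). Of all tested genes, 10.5% did so as higher and 10.2% as lower. Marker sums for T and NK, endothelial and erythroid cells stayed under 1 CPM in every library, with a highest value of 0.818 CPM for T and NK genes. Myeloid markers summed to between 5.03 and 5.84 CPM, and epithelial markers to between 3.74 and 5.19 CPM. Of 13138 genes tested, 267 passed the test (2.03%), 126 higher (0.959%) and 141 lower (1.07%) in the AURKA-guide libraries.

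RNA of all 10 KLFs was found in LP-1 cells, over a wide range of levels. In FPKM, which divides a gene's count by its length and the library size and so allows levels of different genes to be compared, KLF13 stood highest with a mean of 52.9 over the 6 libraries (range 50.1 to 56.7). KLF10 followed at 33.2 (31.2 to 36.6), then KLF2 at 29.3 (25.3 to 35.6), KLF16 at 22.2 (20.6 to 25.4), KLF6 at 18.7 (16.8 to 20.3) and KLF3 at 10.5 (9.12 to 11.6). A lower tier held KLF9 at 1.92 FPKM, KLF12 at 1.37, KLF11 at 1.09 and KLF4 at 0.96. The levels thus mixed the functional groups: SIN3-binding KLF13 led, and the 3 activators ranged from KLF2 near the top to KLF4 at the bottom.

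**Figure D1:**
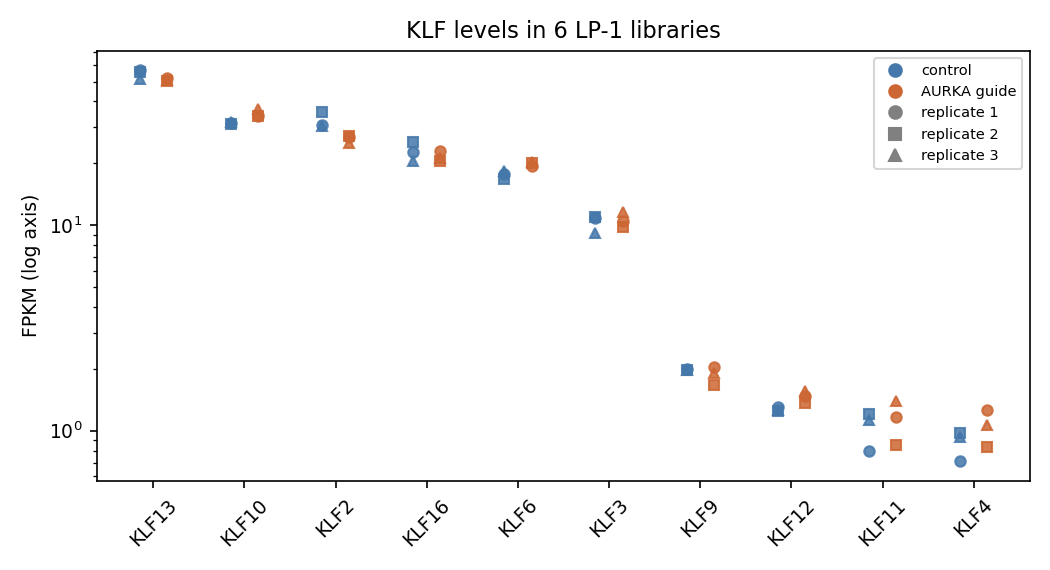
FPKM (log axis) of the 10 KLFs in each of the 6 LP-1 libraries, ordered by mean; blue points are controls, orange points AURKA-guide libraries, and shapes mark the replicate number. KLF3 (mean 10.5) and KLF9 (mean 1.92) are separated by the widest gap between neighbours, and the points of KLF10 (31.2 to 36.6) and KLF2 (25.3 to 35.6) interleave.

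The order of the levels was tested between neighbours within each library, which the choice of genes did not use. The neighbours were set by the mean levels in these same libraries, so the p-values add little to the counts of libraries. Of 9 neighbouring pairs, 7 kept their order in 6 of 6 libraries, each at an adjusted p = 0.0402 by an exact two-sided sign-flip permutation test (p = 0.03125 unadjusted, the smallest that 6 libraries allow). The widest step was from KLF3 to KLF9, 5.21-fold on the log2(FPKM + 0.1) scale, and the narrowest step to pass was from KLF16 to KLF6, 1.19-fold. KLF10 and KLF2 were not told apart: KLF10 was above KLF2 in 5 of 6 libraries (1.14-fold, exact permutation adjusted p = 0.156), and control replicate 2, with KLF2 at 35.6 and KLF10 at 31.2 FPKM, had the opposite order. KLF11 and KLF4 were not told apart either, with KLF11 above in 5 of 6 libraries (1.12-fold, exact permutation adjusted p = 0.105). With CPM per kilobase of the longest coding transcript in place of FPKM, KLF2 stood above KLF10 and that pair passed too (8 of 9 pairs), so the order of KLF2 and KLF10 depends on the length used.

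Across the AURKA-guide and control groups the KLFs did not differ in 1 direction. The log2 difference was above 0 for 6 of 10, with a median of 0.07, against 6565 of 13138 tested genes above 0 and a median of -9.4e-05 over all. Their summed normalised count lay between 757 and 819 CPM in controls and between 757 and 778 CPM in AURKA-guide libraries, so the ranges overlapped. All 10 passed the filter on low counts. The all-gene fit called KLF2 alone, 1 of 10 where it called 2.03% of all genes, and the libraries of the groups did not overlap for 4 of 10, 3 higher and 1 lower, where 20.8% of all genes did so (10.5% higher, 10.2% lower). Since the genes were chosen with this contrast known, nothing is read from those counts. In bulk RNA, fewer cells that express a gene and less of its RNA per cell cannot be told apart.

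**Figure D2:**
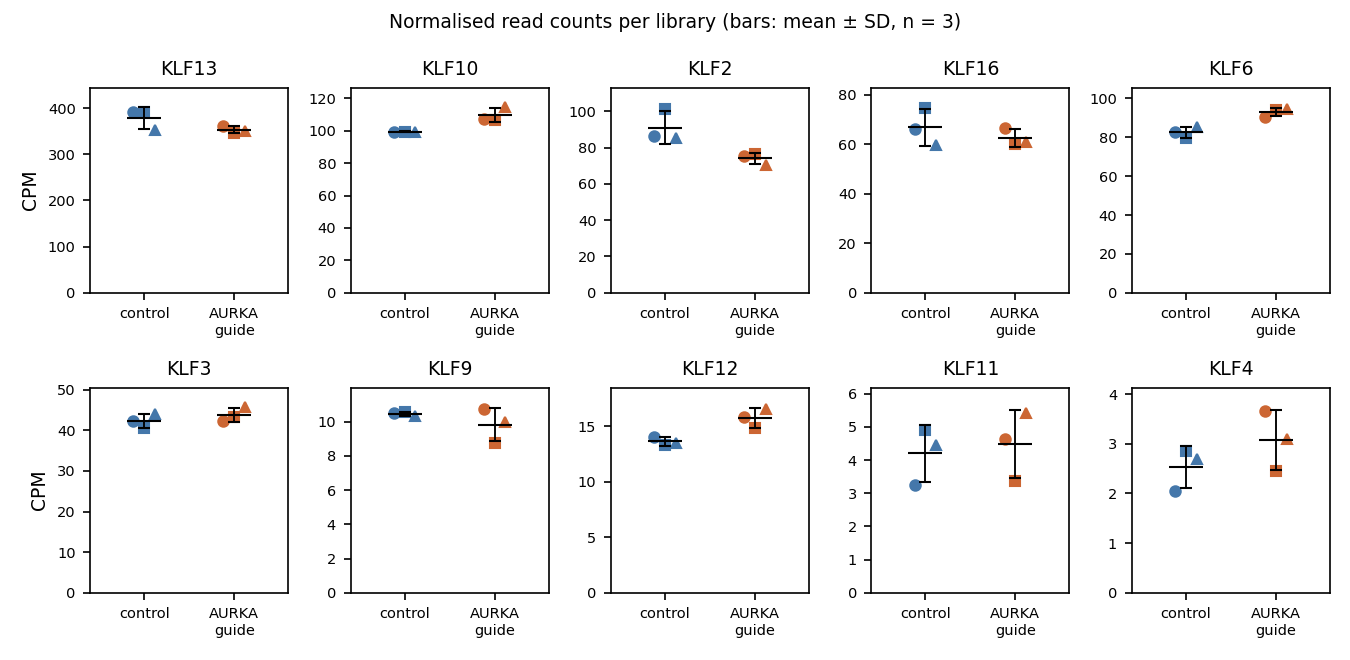
Normalised count (CPM, axis from 0) of each KLF in the 3 control (blue) and 3 AURKA-guide (orange) libraries, with shapes for replicate number and black marks for the mean ± SD. The groups are apart for KLF2 (85.1 to 101 against 70.6 to 76.3), KLF6, KLF10 and KLF12, and overlap for the other 6.

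Among the activators, KLF2, which keeps lymphocytes quiescent and sets their homing receptors, was lower in the AURKA-guide libraries. Its normalised count was 86.3, 101 and 85.1 CPM in control replicates 1 to 3 and 75.2, 76.3 and 70.6 CPM in AURKA-guide replicates 1 to 3. Control replicate 2 stood above the other controls, and every AURKA-guide library lay below every control. The means were 90.9 ± 9.05 and 74.0 ± 3.04 CPM (SD, n = 3), a log2 difference of -0.30 (SE 0.07), or 0.815 of the control level. Its transcript is GC-rich (65.2% GC), and over all genes the difference between the groups followed GC content: the median log2 difference was 0.08 in the lowest of 10 GC classes and -0.11 in the highest, where KLF2 lies. After each library's trend with GC was used as an offset, the KLF2 difference was -0.18. The log2 difference ran from -0.34 to -0.21 over the 6 fits that leave out a library, and KLF2 was no longer called without any 1 of them other than control replicate 3.

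KLF6, a zinc finger factor known as a growth suppressor with several splice forms, was higher. It measured 82.9, 79.4 and 85.2 CPM in controls and 90.5, 93.9 and 94.6 CPM in AURKA-guide libraries. All 3 AURKA-guide values lay above the highest control. The means were 82.5 ± 2.91 and 93.0 ± 2.21 CPM (SD, n = 3), a log2 difference of 0.17 (SE 0.05) that was 0.15 with the GC offset. KLF4, a pluripotency factor that also drives cell cycle arrest, was the scarcest KLF, with 38, 50 and 50 reads in controls and 67, 45 and 57 in AURKA-guide libraries. Its groups overlapped, since AURKA-guide replicate 2 at 2.45 CPM lay below 2 of the 3 controls. The log2 difference of KLF4 was 0.28 with an SE of 0.20, the widest of the 10, and was 0.13 without AURKA-guide replicate 1, 0.15 without control replicate 1 and 0.42 without AURKA-guide replicate 2.

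Of the CtBP-binding repressors, KLF12, first known as a repressor of the AP-2 alpha gene, measured 14.1, 13.3 and 13.5 CPM in controls and 15.9, 14.8 and 16.6 CPM in AURKA-guide libraries. The groups did not overlap, and the log2 difference was 0.21 (SE 0.08). It has the lowest GC content of the 10 transcripts (38.8%), and the difference was 0.14 with the GC offset. KLF3, a repressor that shapes B cell subsets, measured 42.3, 40.6 and 44.0 CPM in controls and 42.3, 43.3 and 45.7 CPM in AURKA-guide libraries, and the groups overlapped. Its log2 difference of 0.05 (SE 0.06) was -0.0042 with the GC offset, so its sign depends on that step. It was 0.02 without AURKA-guide replicate 3 or control replicate 2 and 0.07 without control replicate 3 or AURKA-guide replicate 1. KLF3 has an annotated antisense neighbour, KLF3-AS1, and strandedness is not given in the sources used here. Reads from any stretch that both cover could therefore not be told apart, and whether there is such a stretch was not tested.

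Of the SIN3-binding KLFs, KLF10, a TGF-beta-inducible early gene, was higher. The controls lay close together at 99.0, 99.4 and 99.6 CPM, and the AURKA-guide libraries measured 107, 107 and 114 CPM. The groups did not overlap, with means of 99.3 ± 0.27 and 109.5 ± 4.31 CPM (SD, n = 3) and a log2 difference of 0.14 (SE 0.05). KLF11, its closest relative and another TGF-beta-inducible gene, measured 3.24, 4.91 and 4.46 CPM in controls and 4.65, 3.38 and 5.42 CPM in AURKA-guide libraries. Both KLF11 groups spanned nearly the same range, and the log2 difference of 0.10 (SE 0.19) turned to -0.06 without AURKA-guide replicate 3 and was below 0 without control replicate 1 as well, and it was 0.26 without AURKA-guide replicate 2 and 0.22 without control replicate 2.

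KLF13, known in T cells as an activator of the chemokine gene CCL5, gave the most reads of the 10. It measured 392, 392 and 352 CPM in controls and 361, 347 and 351 CPM in AURKA-guide libraries. Control replicate 3 fell inside the AURKA-guide range, so the groups overlapped, with a log2 difference of -0.10 (SE 0.05). Without control replicate 3 the difference was -0.15. KLF16, first described as a regulator of dopamine receptor genes, measured 66.2, 74.6 and 59.5 CPM in controls and 66.6, 60.0 and 60.9 CPM in AURKA-guide libraries. The groups overlapped, and its log2 difference of -0.09 (SE 0.08) was 0.04 with the GC offset. It was -0.17 without control replicate 3, -0.14 without AURKA-guide replicate 1 and -0.01 without control replicate 2, and its transcript is the most GC-rich of the 10 (67.8%). KLF9, a glucocorticoid- and thyroid hormone-responsive factor, measured 10.5, 10.6 and 10.3 CPM in controls and 10.7, 8.78 and 9.97 CPM in AURKA-guide libraries. AURKA-guide replicate 1 lay above all controls and the other 2 below them, for a log2 difference of -0.09 (SE 0.10). That value was -0.16 without AURKA-guide replicate 1 and -0.02 without AURKA-guide replicate 2.

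**Figure D3:**
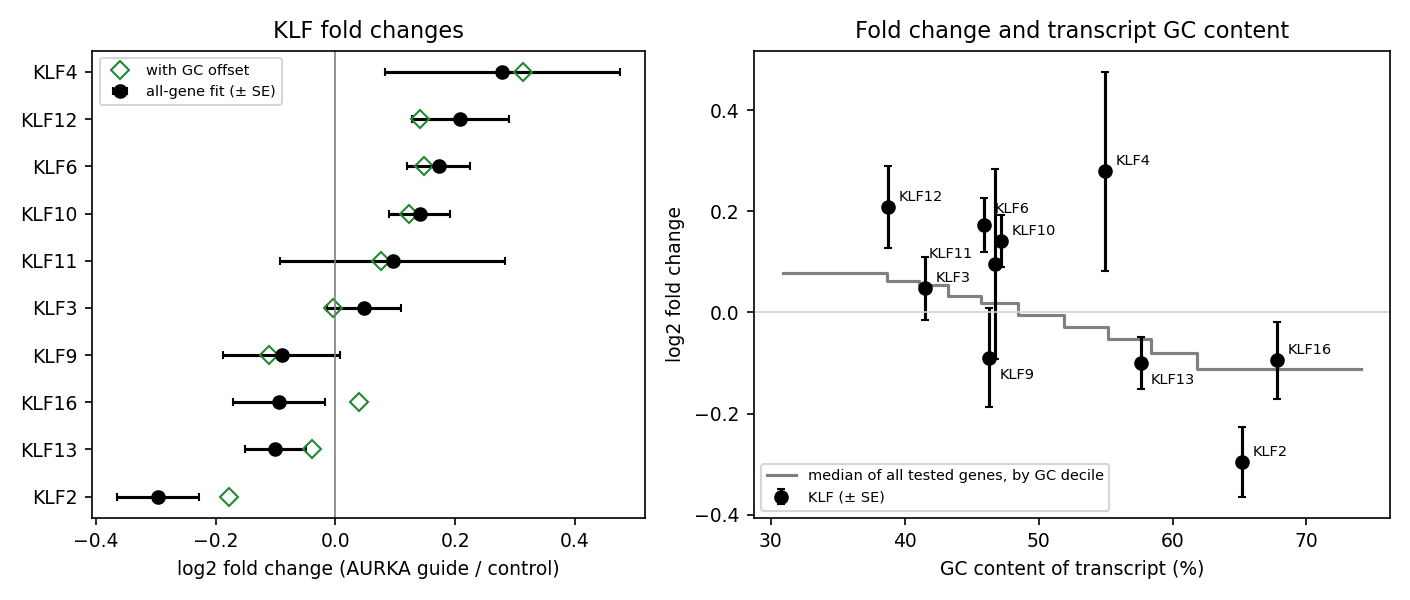
Left, log2 difference (AURKA guide over control) of each KLF with its SE (black) and the value with a GC offset (green diamonds); right, the same differences against GC content of the transcript (%), with the median of all tested genes by GC class (grey line, from 0.08 to -0.11). KLF2, KLF3, KLF9 and KLF13 lie below the grey line and the other 6 above it, and the sign of KLF3 and KLF16 differs between black and green.

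The transcript table divides each gene's reads among annotated transcripts by estimation. It held 24 transcripts of the 10 KLFs, and 4 of the genes (KLF2, KLF9, KLF13 and KLF16) had 1 transcript each. Of the 24, 19 could be tested and 0 were called by edgeR's quasi-likelihood test, in a test that called 0.00227% of 43979 transcripts. An unadjusted p under 0.05 was found for 2 of the 19. The share of all transcripts with such a p was not counted, so nothing is read from the 2. DESeq2 called 2, the single KLF2 transcript and NM_001160124.1 of KLF6, where it called 2.04% of 43589 transcripts, and nothing is read from that count.

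KLF6 reads fell on 3 annotated transcripts. NM_001300.5 took 75.6% ± 5.72 of them in controls and 76.7% ± 8.80 in AURKA-guide libraries (SD, n = 3). NM_001160125.1, which lacks an exon of 124 bases and has 711 coding bases where the former has 849 (GENCODE release 29), was estimated at 208, 326 and 223 counts in controls and 460, 498 and 230 in AURKA-guide libraries. AURKA-guide replicate 3 lay within the control range, so the groups overlapped. NM_001160124.1 was estimated at 129, 104 and 99.4 counts in controls and was listed at 0 in all 3 AURKA-guide libraries. If the listed 0 is read as up to 3 counts per library, the estimate is at least 37.0-fold lower. That limit covers counting error only and not how reads were divided among transcripts, so it is no minimum loss of the RNA. Such losses were not rare: of 26379 transcripts with a control mean of at least 50 counts, 286 (1.08%) were at 0 in every AURKA-guide library, and in the opposite direction 263 of 26697 (0.985%) were. GENCODE links NM_001160124.1 and NM_001300.5 to the same transcript model, and whether reads were divided differently between them was not tested.

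**Figure D4:**
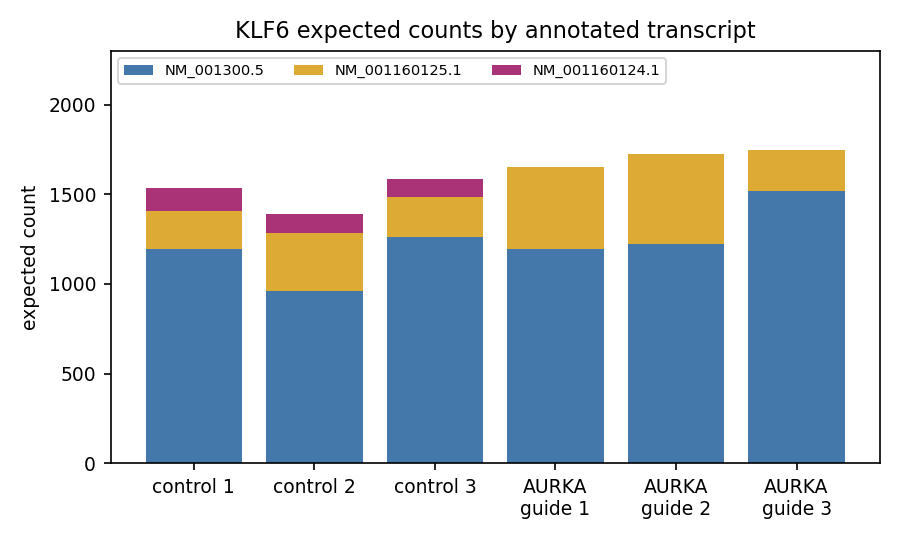
Expected counts of KLF6 per library, stacked by annotated transcript (blue NM_001300.5, yellow NM_001160125.1, purple NM_001160124.1). The purple segment of 99.4 to 129 counts is present in the 3 controls and at 0 in the 3 AURKA-guide libraries, while the whole bar is higher in the latter.

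Other KLFs also spread over several transcripts. KLF10 was mostly NM_005655.3, and its second transcript, NM_001032282.3, held 11.7% ± 1.72 of its counts in controls and 15.4% ± 3.54 in AURKA-guide libraries (SD, n = 3). KLF3 was divided over 4 transcripts, led by XM_017008279.2 with 56.6% of all KLF3 counts, followed by XR_001741235.2 with 19.97% and NM_016531.5 with 17.6%. For the scarce KLF4, KLF11 and KLF12 the estimates moved between transcripts from library to library: NM_001314052.1 of KLF4 was at 0 in 4 libraries and at 27.7 and 17.4 counts in AURKA-guide replicates 2 and 3, and NM_001177716.1 of KLF11 ran from 4.92 to 100 counts, with NM_003597.4 making up most of the rest. In KLF12, XM_011534907.2 held from 29.4% (control replicate 1) to 93.8% (AURKA-guide replicate 2) of a library's counts and XM_005266251.4 from 6.24% to 38.0%. NM_007249.4 of KLF12 was at 0 in replicate 2 of both groups and held 42.5% in control replicate 1, where it was the leading transcript.

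The authors' deposited tables give their own comparisons. Since the KLFs were chosen with the AURKA-guide contrast known, nothing is read from the q-values and counts below. Their deposited gene table has 231 rows and lists 1 of the 10 KLFs, KLF2, at a log2 difference of -0.30 with a q-value of 0.0127. Their deposited transcript table also compares cells given an NSD2 guide with a control of the same name. The comparisons below may thus share their control libraries and are not taken as independent. The NSD2-guide libraries were not analysed here. In the authors' deposited table, KLF2 was at -0.30 (q = 0.0815) with the AURKA guide and at -0.49 (q = 8.95e-05) with the NSD2 guide. The main KLF6 transcript, NM_001300.5, was at 0.19 (q = 0.99999) with the AURKA guide and at 0.48 (q = 0.00135) with the NSD2 guide in the authors' deposited table. For NM_001160124.1 of KLF6 the authors' deposited table gives -9.25 (q = 1.68e-08) and -9.24 (q = 1.85e-08), where the 3 AURKA-guide libraries were listed at 0. KLF13 was at -0.10 (q = 0.847) and 0.12 (q = 0.942) in the authors' deposited table. Of the 23 KLF transcripts with a value there, 2 had a q-value under 0.05 for the AURKA guide, where 1.55% of all transcripts did, and 4 for the NSD2 guide, where 1.78% did (2 lower, where 0.77% were, and 2 higher, where 1.01% were). Among those of both guides, XM_011534912.2 of KLF12 at 20.7 (q = 1.77e-06) for the AURKA guide in the authors' deposited table, rests on a single library with 93.9 counts among 6, the others being at 0.

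Of the 7 KLF genes outside the 10, 3 were abundant enough to test. KLF7, the KLF6-related factor of the nervous system, measured 11.9, 13.0 and 12.1 CPM in controls and 14.7, 15.9 and 14.6 CPM in AURKA-guide libraries. The groups did not overlap, and its log2 difference of 0.29 (SE 0.08) did not pass edgeR's test (adjusted p = 0.108, from 0.0534 to 0.362 over the alternatives). KLF5 and KLF8, at 2.31 and 3.39 CPM over all libraries, had log2 differences of -0.23 (SE 0.18) and -0.20 (SE 0.15), with edgeR's adjusted p = 0.543 for each. Their groups did not overlap either, where 20.8% of all tested genes did so (10.5% higher, 10.2% lower), and nothing is read from that. KLF1, KLF14, KLF15 and KLF17 were too low to test. Of 9 SP genes, 8 were in the table and 4 could be tested, SP1, SP2, SP3 and SP4, with log2 differences of 0.04, -0.04, 0.06 and 0.14. By edgeR's test 0 of these 7 tested relatives were called, where 2.03% of all genes were, and DESeq2 also called 0. An unadjusted p under 0.05 was found for 1 (KLF7), where 2118 of all 13138 genes had one.

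Genes that act on KLFs or with them were read from lists drawn up by role, with earlier results of these data known. Nothing is read from how many of them were called. Of 17 upstream genes, which include the MAP kinase and MEF2 route to KLF2 and KLF4, the demethylase gene KDM3A reported upstream of KLF2 in myeloma, and the TGF-beta and glucocorticoid receptors, 17 were tested and 0 passed edgeR's test, with a median log2 difference of 0.05. Without control replicate 3, 6 of the 17 passed (MAP3K2, MEF2D, NR3C1, SMAD2, SMAD3 and SMAD4), where 2034 of 13283 genes did. By DESeq2 also 0 were called, and 3 had an unadjusted p under 0.05 in edgeR's test, where 2118 of all 13138 genes had. The 3 were TGFBR1 at 0.24 (adjusted p = 0.249), NR3C1 at 0.13 (adjusted p = 0.271) and SMAD4 at 0.13 (adjusted p = 0.283). Of 12 cofactor and turnover genes, 12 were tested and 0 passed edgeR's test or DESeq2, 0 had an unadjusted p under 0.05, and the median was -0.03. The 3 with the smallest p were the ubiquitin ligase gene WWP1 at 0.12 (adjusted p = 0.380), the corepressor gene SIN3A at 0.06 (adjusted p = 0.572) and the ligase gene SMURF1 at -0.07 (adjusted p = 0.582).

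Of 15 genes listed as reported KLF targets, 12 were tested and 2 passed, both lower, where 1.07% of all genes passed as lower. This list too was drawn up with earlier results of these data known, so its counts and p-values are a description only. In all, 5 of the 12 had an unadjusted p under 0.05, where 2118 of all 13138 genes had. Without control replicate 3, 4 of the 12 passed, where 2034 of 13283 genes did. CDKN1A, the gene of the cell cycle inhibitor p21, measured 18.8, 18.6 and 18.4 CPM in controls and 10.99, 8.72 and 11.1 CPM in AURKA-guide libraries. It fell by 0.86 (SE 0.09) on the log2 scale with edgeR's adjusted p = 0.000204. CDKN1C, the gene of the related inhibitor p57, measured 21.9, 24.7 and 18.4 CPM in controls and 15.6, 13.6 and 14.1 CPM in AURKA-guide libraries. It fell by 0.58 (SE 0.10) on the log2 scale with edgeR's adjusted p = 0.00735, which was 0.0751 without AURKA-guide replicate 2 and 0.0589 without AURKA-guide replicate 3. The mitotic cyclin gene CCNB1, next by p among targets with at least 5 CPM, was at 0.15 (SE 0.05) with edgeR's adjusted p = 0.146, which was 0.0361 with the GC offset and 0.00948 without control replicate 3. Singled out after their values were seen, IRF4 was at -0.12 (SE 0.04, edgeR adjusted p = 0.201) and the homing integrin gene ITGB7 at 0.07 (SE 0.05, edgeR adjusted p = 0.517), and with the GC offset they were at -0.13 (adjusted p = 0.00545) and 0.14 (adjusted p = 0.00157).

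For the 3 KLFs with the highest mean CPM, the genes whose log2 CPM ran most alike over the 6 libraries were found among 10250 genes with at least 5 CPM on average. They were RFX1 (Pearson r = 0.9946) and DHRS11 (0.9938) for KLF13, KRBOX4 (0.9964) and TRIP12 (0.9919) for KLF10, and CKAP2L (0.9968) and TCF4 (0.9967) for KLF6. These coefficients rest on 6 libraries that share the group difference and the GC trend, and they are the top of a long list, so they are given as a description only.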

How the data were processed

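RNA-seq was made on 6 LP-1 libraries with the BGISEQ500 protocol per the labels. BWA, Bowtie2, RSEM and hg19 are named per the submitters' processing notes; versions, settings and strandedness were not given in the sources used here. RSEM divides reads among transcripts, and the authors deposited such expected counts per gene and transcript, with FPKM, and TPM that was not used, per the file headers. They also deposited tables of log2 fold changes with p-values and q-values. The KLFs and gene lists were chosen with earlier results of these data known.

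Expected counts were rounded and tested with edgeR 4.0.16 (R 4.3.3): filterByExpr, TMM scaling, quasi-likelihood F test, Benjamini-Hochberg adjustment at 0.05 over all genes or transcripts tested. The test was tried on simulated data first. CPM uses TMM-scaled library sizes. Levels were compared on log2(FPKM + 0.1). With no molecular identifiers, reads are not independent molecules, so a limit from a count of 0 covers counting error only; all tests used the spread between libraries. Replicates differed by more than counting noise (chi-square per gene 2.24 to 10.5). The value was 2.24 to 2.66 between AURKA-guide libraries and 2.96 between control replicates 1 and 2. Control replicate 3 stood apart, at 5.22 against control replicate 1 and 10.5 against control replicate 2.

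The named genes are AURKA; the 10 KLFs; tested KLF and SP relatives; in each list the genes called and the 3 of smallest p with a mean of 5 CPM or more; for the 3 KLFs with the highest CPM the 2 most alike genes; and transcripts with at least 10% of a KLF's counts; others are named for their values. GC content came from the longest coding transcript in GENCODE release 29. Alternatives were leaving out 1 library at a time, a replicate block, another filter (none, or 10 CPM on average), another scaling (library size, or DESeq2 size factors), DESeq2 1.42.0 or limma 3.58.1 on log2(FPKM + 1) as the tool, and a GC offset (natural spline, 5 degrees of freedom) alone or with the block. Promoters were matched by gene identifier.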

Additional observations from a re-analysis of the deposited data

How the results depend on the processing

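The count of all genes called (267) was between 98 (without AURKA-guide replicate 3) and 2034 (without control replicate 3) when 1 library was left out, 804 with the GC offset and 914 with the GC offset and replicate block. The count of KLFs called (1) ran from 0 to 3 when 1 library was left out: 3 without control replicate 3 (KLF2, KLF6 and KLF13) and 0 without any other 1 library. It was 0 with limma on log2(FPKM + 1), 2 with the GC offset (KLF2 and KLF6) and 3 with the GC offset and replicate block (KLF2, KLF6 and KLF10). Pathway genes called (2) ran from 1 to 10 with 1 library left out, and were 5 with the GC offset, alone or with the block. Called KLF transcripts (0) were 2 with DESeq2. Fits that leave out a library also have fewer samples, and the causes of these changes were not tested. With no filter, a mean of at least 10 CPM (which drops KLF4 and KLF11), DESeq2 size factors, library size alone or DESeq2, all-gene counts lay between 186 and 281, and KLF2 was the 1 KLF called in each.

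Replicate numbers did not pair the samples (same-numbered deviations correlated at 0.11, -0.103 and 0.284). The replicate block gave 385 genes called, with KLF2 again the 1 KLF called. Of 148 KLF values under alternatives, 141 moved by less than 1 SD, taken as that KLF's own SD of log2 CPM pooled within groups. This SD was widest for KLF11 (0.32) and KLF4 (0.26), so their values could move far within it. The sign changes of KLF3 and KLF11 are among the 141. Direction was kept in every alternative by 7 of 10 KLFs, and not by KLF3, KLF11 and KLF16. The level order passed in 7, 8 and 7 pairs under its alternatives. Leaving out a library or blocking cannot reach 0.05 in that exact test (smallest p = 0.0625 and 0.25), so neither was run. Depth limits KLF4 and KLF11 most.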
